A study of Homo sapiens with 30 samples.

Results

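A set of 10 interferon-stimulated genes was followed through prolonged interferon-γ (IFN-γ) exposure and withdrawal in 2 human glioblastoma cell lines. The genes were IFI6, IFI27, IFI35, IFI44, IFI44L, EPSTI1, SAMD9, SAMD9L, XAF1 and PLSCR1. They were chosen by symbol, and all 10 were found among the 61471 genes listed in the tables of both lines. RNA was sequenced from U87-MG and U251-MG cells, and levels are given as TPM, the name of the deposited tables. TPM is a library's transcript share after correction for gene length. The study's supplement describes its matrices as CPM, which carries no such correction, so the order of levels between genes holds only if the name TPM is right.

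The 5 groups were compared in each line. Untreated cells received no IFN-γ. D3, D14 and D28 cells were collected after 3, 14 and 28 days of continued IFN-γ. D28WO cells received IFN-γ for 14 days and were then kept 14 days without it. Per the study's methods, the D28 and D28WO arms were split from the same cultures at day 14. The labels give a dose of 1 µg/mL and place the Untreated cells at day 3. The study's methods give a lower dose and place them at day 0. No Untreated cells were collected at day 14 or 28. At D14, D28 and D28WO, treatment therefore cannot be told apart from time in culture. All cells were wild type, and all replicates were independent cultures of one line per table. Both lines are on the register of commonly misidentified lines, and the study did not authenticate them by short tandem repeats after receipt. U251 was analysed with 3 libraries in each group. U87 had 3 libraries in the Untreated, D28 and D28WO groups but 2 at D3 and 2 at D14, because 2 columns of its table carry the same name and were not used.

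Interferons reach these genes by 2 related routes. IFN-γ signals through its receptor and the kinases JAK1 and JAK2 to the gamma-activated site (GAS) of its target genes. Type I and type III interferons signal through JAK1 and TYK2 to a complex that includes STAT2 and IRF9 and binds the interferon-stimulated response element (ISRE). The genes described here are best known as responders to the second route, and IFI27, IFI44L and IFI6 are often used to score an interferon response in blood and tissue.

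Promoter sequence was examined first. The RefSeq window of 250 bases before and 50 bases after a start site (GRCh38.p14) was available for all 10 genes. The ISRE core was searched as GAAA, any 2 bases and GAAA again, and the GAS as TTCNNNGAA, both on either strand. An ISRE core was found in 7 of the 10 windows, against 3.65% of 27305 promoter windows. A GAS was found in 4 of the 10 windows, against 7.88% of the same windows. In 2 lists described later, an ISRE core was found in 14 of 22 windows for the ISRE responders and in 4 of 7 for the genes of the IFN-γ response, and a GAS in 5 of 22 and 2 of 7. The windows below show 1 ISRE core each for the genes described most fully, and both repeats in IFI44L. They are printed 5′ to 3′ on the strand of the gene, with the matched letters in capitals. A core on the opposite strand reads TTTC, 2 bases and TTTC.
IFI6 (chr1:27672266-27672295, minus strand): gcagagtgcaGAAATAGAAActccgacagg
IFI27 (chr14:94110631-94110660, plus strand): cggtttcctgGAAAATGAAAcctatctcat
IFI44 (chr1:78649761-78649790, plus strand): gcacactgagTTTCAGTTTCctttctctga
IFI44L, distal (chr1:78620274-78620303, plus strand): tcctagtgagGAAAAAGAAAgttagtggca
IFI44L, proximal (chr1:78620365-78620394, plus strand): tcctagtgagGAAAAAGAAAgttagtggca
EPSTI1 (chr13:42992272-42992301, minus strand): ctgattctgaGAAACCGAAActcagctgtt
SAMD9 (chr7:93118096-93118125, minus strand): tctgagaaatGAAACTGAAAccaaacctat
PLSCR1 (chr3:146544667-146544696, minus strand): cgggaaccggGAAAAGGAAAccgtgttgtg

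IFI6 held 3 ISRE cores, IFI27 and IFI44L held 2 each, and IFI44, EPSTI1, SAMD9 and PLSCR1 held 1 each. The IFI44 core lay closest to its start site, ending 9 bases before it, and the SAMD9 core ended 127 bases before its own. The 2 IFI44L windows carry the same 30 bases. The GAS matches are shown for the genes that hold one before the start site, because IFI35 has a GAS and no ISRE core.
IFI35 (chr17:43006752-43006780, plus strand): aggcagggatTTCACGGAAatgaaagtgg
IFI27 (chr14:94110625-94110653, plus strand): cagtttcggtTTCCTGGAAaatgaaacct
EPSTI1 (chr13:42992279-42992307, minus strand): ctgctgctgaTTCTGAGAAaccgaaactc

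The GAS of IFI27 and that of EPSTI1 overlap an ISRE core of the same window. PLSCR1 held a GAS in the transcribed part of its window. SAMD9L and XAF1 held neither motif within these letters. These matches describe the windows alone, and binding was not measured.

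Before the groups were compared, the libraries were checked against their labels with genes of the IFN-γ route. In U87, IRF1, a transcription factor induced directly by IFN-γ, had a mean of 133 TPM in Untreated cells and 448 TPM at D3. It was 122 TPM in the libraries labelled D14, 480 TPM at D28 and 510 TPM at D28WO. IDO1, a tryptophan-degrading enzyme induced by IFN-γ, was at 83.6 TPM at D3, was listed at 0 in both U87 libraries labelled D14, and was at 136 TPM at D28WO. The U87 libraries labelled D14 therefore lay at or below the Untreated level of these 2 genes, and those labelled D28WO lay at or above the D28 level. Other genes differed. In U87 BST2, an antiviral gene, was at 7.32 to 8.09 TPM at D14 against 1.70 to 2.35 TPM in Untreated cells. OAS2, also antiviral, was at 10.7 to 11.2 against 2.57 to 3.75 TPM. GBP1, an interferon-induced GTPase, was at 31.7 to 36.6 against 31.3 to 39.6 TPM. Of 30 ISRE responders and 12 IFN-γ response genes, 5 and 1 passed the threshold given below as higher at D14 in U87. The share of all genes was 1.89%. At D28WO in U87 GBP1 was at 213 to 232 TPM against 244 to 256 TPM at D28. HLA-DRA, a class II antigen-presenting chain, was at 302 to 330 against 344 to 428 TPM. In U251, the mean of IRF1 was 141 TPM (Untreated), 589 TPM (D3), 300 TPM (D14), 603 TPM (D28) and 620 TPM (D28WO). In U251 IDO1 was at 401 TPM at D28 and 302 TPM at D28WO, HLA-DRA at 303 and 183 TPM, and the chemokine gene CXCL9 at 187 and 16.1 TPM, each without overlap. Of 12 genes known for a GAS or an IFN-γ response, the threshold given below was passed as lower at D28WO than at D28 by 0 in U87 and by CXCL9 in U251, and as higher by 0 in both lines. Groups were used as labelled, and whether each culture carried its labelled treatment was not tested.

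Other properties of the libraries also moved with treatment. The number of genes above 0 TPM was 24223 to 25459 in Untreated U87 and 26096 to 28649 in the treated U87 libraries. In U251 it was 24450 to 27187 in Untreated libraries and 25633 to 30246 in treated ones. The mean of 405 olfactory receptor genes, with the extremes left out, was 0.0036 to 0.0071 TPM in Untreated U87. It was 0.0089 to 0.049 TPM in treated U87 libraries. In U251 the ranges overlapped, at 0.0049 to 0.012 TPM in Untreated and 0.0080 to 0.040 TPM in treated libraries. Of 6 markers used to check the cell type, VIM and CD44 were abundant in both lines, whereas SOX2 was at most 0.41 TPM in any U87 library and was 105 to 176 TPM in U251. GFAP, the astrocyte filament, fell in U251 from 1258 TPM in Untreated cells to 243 TPM at D28, whereas in U87 it rose from 4.84 to 14.2 TPM. At D28 2 of the 6 markers, GFAP and S100B, passed the threshold given below as higher in U87 and as lower in U251. Among 9 markers of other cell types, the defining leukocyte genes PTPRC and CD3E were at most 1.47 TPM in any library, and CD68 held most of the summed level. The summed level of the 9 markers was 323 to 379 TPM in Untreated U87 and 217 to 451 TPM in treated U87 libraries, and 248 to 271 TPM in Untreated U251 and 116 to 198 TPM in treated ones. The part these differences play in the results below was not tested. Differences were tested on log2(TPM + 1) with limma, and the threshold for a call was a Benjamini-Hochberg adjusted p below 0.05 together with a log2 fold change beyond 1 in either direction. The median of all genes tested was itself higher in treated than in Untreated cells, by 0.15 to 0.25 on the log2 scale in U87 and by 0.02 to 0.16 in U251.

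In U87, 6 of the 10 genes passed the threshold as higher at D3, where 5.85% of all 22918 genes tested did so. At D14 none of the 10 passed, against 1.89% of all genes. By limma, 4 of the 10 were higher at D14 at an unadjusted p under 0.05, against 17.9% of all genes, and 1 was lower, against 5.10%. At D28, 6 of the 10 were again higher (6.77% of all genes), and at D28WO 7 of the 10 were higher (12.8%). By adjusted p alone, all but IFI44 were higher at D3, D28 and D28WO. That is 9 of the 10, against 12.4%, 17.2% and 28.6% of all genes. No member passed as lower than Untreated in either line, where 0.384%, 0.209%, 0.611% and 2.12% of all genes did so at D3, D14, D28 and D28WO in U87 and 4.55%, 1.04%, 3.35% and 3.38% in U251. By limma at an unadjusted p under 0.05, SAMD9L was lower at D14 and IFI44 at D28WO in U87 (15.6% of all genes), and 0 members were lower in the other treated groups. The share of all genes in those groups was 8.06% (D3) and 10.3% (D28) in U87 and 18.7%, 11.4%, 17.1% and 18.0% over the treated groups of U251. Over the successive groups in U87 the 10 genes had a median log2 fold change of 1.26 (D3), 0.17 (D14), 1.27 (D28) and 1.49 (D28WO).

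In U251 the 10 genes rose together and stayed up. All 10 were higher at D3, where 9.72% of 23667 genes tested were. At D14, 9 of the 10 were higher (4.72% of all genes), and IFI35 was the exception at a log2 fold change of 0.84. All 10 were higher at D28 (11.9%) and at D28WO (4.07%). Their median log2 fold change was 2.03 (D3), 1.75 (D14), 2.12 (D28) and 2.22 (D28WO). The lines were not tested against each other, because their tables were normalized separately.

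**Figure D1:**
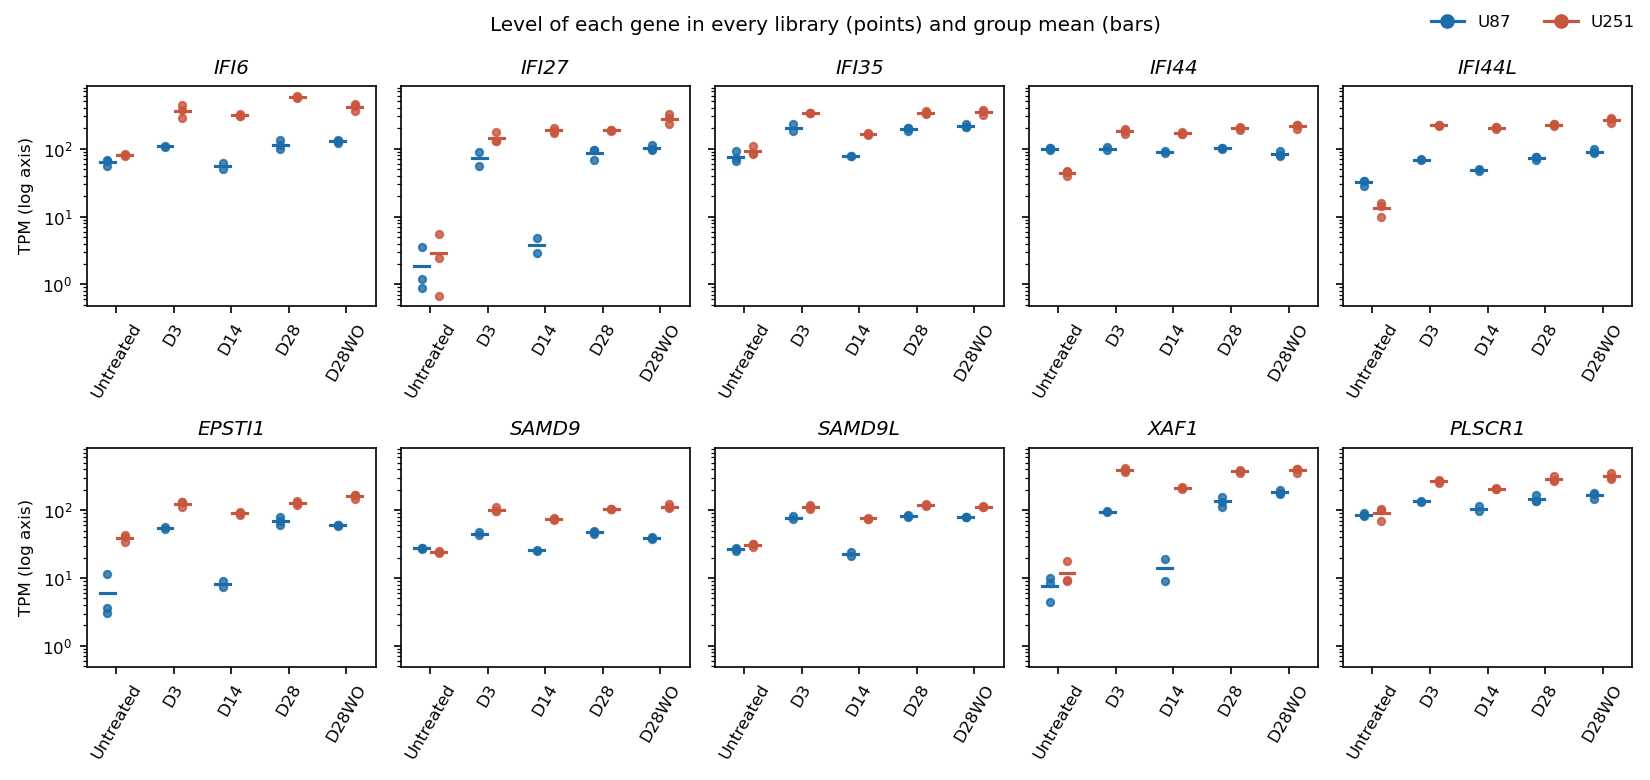
Level of the 10 genes in TPM on a log axis, for U87 (blue) and U251 (red) in the 5 groups. Points are single libraries and bars are group means; in U87 IFI27, EPSTI1 and XAF1 drop at D14 to at most 19.2 TPM, whereas in U251 all 10 genes stay above Untreated in every treated group.

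IFI27 and IFI6 encode small hydrophobic proteins of one family, located at mitochondria and the endoplasmic reticulum and linked to the control of cell death and of viral replication. IFI27 gave the largest fold change of the 10 genes in both lines. In Untreated U87 libraries it was at 1.21, 3.60 and 0.88 TPM. It was at 56.5 and 88.3 TPM at D3, and at 4.76 and 2.92 TPM at D14. At D28 it was at 69.3, 95.5 and 95.4 TPM, and at D28WO at 96.3, 112 and 99.6 TPM. The D14 and Untreated libraries overlapped, and every D3, D28 and D28WO library lay far above them. The log2 fold change was 4.74 ± 0.34 (SE) at D3 (adjusted p = 3.2e-06), 0.83 ± 0.34 at D14 (0.17) and 5.27 ± 0.30 at D28WO (2.5e-07). Without Untreated replicate 2 the D14 value was 1.22 and passed.

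In U251 IFI27 also started low, at 2.42, 5.55 and 0.68 TPM in Untreated cells. It was at 128, 130 and 176 TPM at D3 and at 173, 204 and 182 TPM at D14. It reached 229, 283 and 325 TPM at D28WO. No D14 library of U251 lay near the Untreated ones, unlike those of U87. The log2 fold change was 5.43 ± 0.33 at D3, 5.80 ± 0.33 at D14 and 6.37 ± 0.33 at D28WO.

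IFI6 was already well expressed in Untreated cells of both lines. Its U87 libraries were at 68.5, 66.6 and 56.3 TPM in Untreated cells, 106 and 111 TPM at D3, and 62.0 and 50.8 TPM at D14. They were at 112, 100 and 133 TPM at D28 and at 121, 130 and 134 TPM at D28WO. The change was therefore modest, with a log2 fold change of 0.76 at D3 (adjusted p = 0.0025) and 1.00 at D28WO (4e-05). The D28WO value lies at the fold limit itself, and it no longer passed without Untreated replicate 3 (0.91), D28WO replicate 2 (0.99) or D28WO replicate 3 (0.97). In U251 IFI6 rose from a mean of 80.7 TPM to 363 TPM at D3 and 577 TPM at D28, with log2 fold changes of 2.13 and 2.82. At D28 it was the most abundant of the 10 genes in U251.

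IFI44 and IFI44L are neighbouring genes of related sequence on chromosome 1, both on the plus strand (chr1:78649796-78664078 and chr1:78619902-78646145, GENCODE release 44). IFI44L is a commonly used marker of the type I interferon response, and both proteins have been linked to antiviral defence and its feedback. The U87 IFI44L libraries were at 34.0, 33.5 and 28.2 TPM in Untreated cells and at 70.5 and 67.4 TPM at D3. At D14 they were at 49.8 and 47.3 TPM, and at D28WO at 85.9, 97.8 and 89.5 TPM. The D14 libraries lay between the Untreated and D3 libraries with no overlap. Relative to Untreated the log2 fold change was 1.09 ± 0.10 at D3, 0.60 ± 0.10 at D14 (adjusted p = 0.011) and 1.49 ± 0.09 at D28WO. The D3 value no longer passed with quantile scaling (0.87) or size factors (0.90), nor did the D28 value with quantile scaling (0.98).

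IFI44 showed no such rise in U87. Its libraries were at 95.6, 104 and 102 TPM in Untreated cells, 94.8 and 104 TPM at D3, and 87.7 and 93.7 TPM at D14. They were at 104, 102 and 100.2 TPM at D28 and at 80.1, 78.3 and 94.0 TPM at D28WO. The D3 and D28 libraries overlapped the Untreated ones, and all D28WO libraries lay below them. The log2 fold change was -0.01 (95% interval -0.21 to 0.18) at D3 and 0.02 (-0.15 to 0.19) at D28, intervals that exclude a doubling. At D28WO it was -0.26 ± 0.08 (adjusted p = 0.021).

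In U251 both genes rose. IFI44 was at 44.8, 46.8 and 39.2 TPM in Untreated cells and at 167, 192 and 186 TPM at D3. IFI44L was at 14.3, 15.9 and 9.74 TPM in Untreated cells and at 221, 219 and 225 TPM at D3. The log2 fold changes at D3 were 2.04 ± 0.08 for IFI44 and 3.99 ± 0.12 for IFI44L, and at D28WO 2.27 and 4.24. IFI44 was thus the gene with the highest Untreated level of the 10 in U87, at a mean of 101 TPM, and stood at 43.6 TPM in Untreated U251, a contrast between tables that was not tested.

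The ratio of IFI44L to IFI44 within a library depends little on how the library was scaled. On the log2 scale it averaged -1.63 ± 0.18 (SD, n = 3) in Untreated U87 and -1.66 ± 0.21 in Untreated U251. In U251 the group means were 0.17 to 0.31 in all 4 treated groups. In U87 the means were -0.52 (D3), -0.89 (D14), -0.46 (D28) and 0.12 (D28WO). Every treated library of both lines lay above all Untreated libraries of its line. With 3 libraries against 3 the exact two-sided permutation p was 0.1, the smallest possible, and 0.2 with 2 against 3. Adjusted over the 24 ratio tests run, p was at least 0.133.

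**Figure D2:**
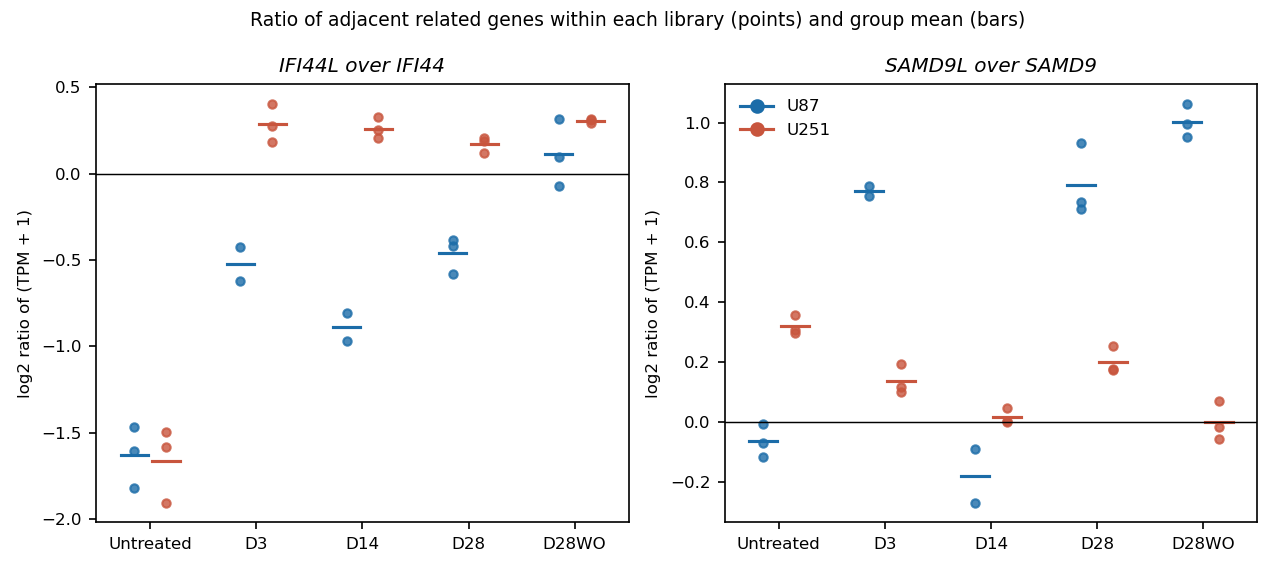
Log2 ratio of (TPM + 1) within each library for IFI44L over IFI44 (left) and SAMD9L over SAMD9 (right), by group, for U87 (blue) and U251 (red). Points are libraries and bars are group means; IFI44L over IFI44 starts near -1.6 in both lines, and SAMD9L over SAMD9 lies between 0.71 and 1.06 in the U87 libraries of D3, D28 and D28WO and at or below 0.26 in every treated U251 library.

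SAMD9 and SAMD9L, adjacent genes on the minus strand of chromosome 7 (chr7:93099513-93118023 and chr7:93130056-93148385), encode large cytoplasmic proteins that restrict poxviruses and limit protein synthesis and cell growth. In U87 SAMD9L was at 27.8, 26.8 and 25.0 TPM in Untreated cells, 74.2 and 81.7 TPM at D3, and 20.8 and 24.3 TPM at D14. It returned to 83.1, 79.3 and 85.4 TPM at D28. Both D14 libraries lay below all Untreated libraries, and the D3 and D28 libraries overlapped each other. The log2 fold change was 1.52 ± 0.09 at D3, -0.23 ± 0.09 at D14 (adjusted p = 0.17) and 1.55 ± 0.08 at D28WO.

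SAMD9 stayed under the fold limit in U87. It was at 27.9, 28.1 and 27.2 TPM in Untreated cells, 42.5 and 47.9 TPM at D3, and 25.2 and 25.9 TPM at D14. The gain on the log2 scale was 0.68 (D3), 0.75 (D28) and 0.49 (D28WO), each with an adjusted p under the limit but none over the fold limit. In U251 both rose, from means of 24.3 TPM (SAMD9) and 30.7 TPM (SAMD9L) to 103 and 113 TPM at D3. The log2 ratio of SAMD9L to SAMD9 averaged -0.06 in Untreated U87, 0.77 at D3 and 1.00 at D28WO, while in U251 it averaged 0.32 in Untreated cells and between 0.00 and 0.20 in the treated groups. Every treated U251 library lay below all Untreated ones in this ratio. These ratios carried the same smallest possible exact permutation p-values of 0.1 and 0.2 as those of IFI44L, except 0.4 for U87 at D14. How reads shared by the 2 genes of each pair were counted is not stated in the sources used here.

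XAF1 encodes a partner of the caspase inhibitor XIAP that promotes apoptosis. In U87 it was at 8.33, 4.45 and 10.1 TPM in Untreated cells, 93.1 and 96.8 TPM at D3, and 9.10 and 19.2 TPM at D14. It was at 112, 134 and 159 TPM at D28 and at 174, 200 and 178 TPM at D28WO. One D14 library lay within the Untreated range and the other above it, and the D28WO libraries lay above all D28 libraries. The log2 fold change was 3.54 ± 0.30 at D3, 0.79 ± 0.30 at D14 (adjusted p = 0.15) and 4.48 ± 0.27 at D28WO. In U251 it rose from 9.27, 17.6 and 9.09 TPM to 393, 420 and 370 TPM at D3, was at 205, 212 and 223 TPM at D14, and returned to 352, 379 and 396 TPM at D28. XAF1 was the second most abundant of the 10 genes in U251 at D28, and its libraries overlapped those of IFI35, the next in order.

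EPSTI1, an interferon-responsive gene first described in epithelial-stromal interaction, differed in its starting level. Its Untreated U87 libraries were at 11.3, 3.08 and 3.56 TPM, and its Untreated U251 libraries at 40.6, 33.8 and 43.1 TPM. In U87 it was at 52.5 and 56.0 TPM at D3, 7.47 and 9.12 TPM at D14, and 59.8, 58.6 and 61.1 TPM at D28WO. The D14 libraries fell inside the Untreated range, which 1 high Untreated library set. The log2 fold change in U87 was 3.17 ± 0.36 at D3 and 0.60 ± 0.36 at D14. With only the compared groups in the fit, the D3 value was the same and no longer passed (adjusted p = 0.057), which leaves 5 of the 10 at D3. Without that library, Untreated replicate 1, the D14 value was 1.10 and passed the threshold. In U251 it was 1.66 at D3, 1.19 at D14 and 2.03 at D28WO.

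PLSCR1, a membrane-associated scramblase that restricts several viruses, was among the 3 most abundant of the genes in Untreated cells of both lines. In U87 it was at 91.3, 84.2 and 82.1 TPM in Untreated cells, 137 and 133 TPM at D3, 114 and 96.0 TPM at D14, and 179, 173 and 148 TPM at D28WO. Every treated library lay above every Untreated library, but the log2 fold change stayed under the fold limit, at 0.65, 0.28, 0.77 and 0.95 for D3, D14, D28 and D28WO. Without D28WO replicate 3 the last of these was 1.03 and passed. In U251 it passed in each treated group, with log2 fold changes from 1.21 at D14 to 1.82 at D28WO.

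IFI35 encodes a leucine-zipper protein that binds NMI and takes part in interferon signalling. In U87 it was at 72.3, 92.6 and 65.2 TPM in Untreated cells, 183 and 228 TPM at D3, and 78.7 and 78.3 TPM at D14. It was at 203, 182 and 204 TPM at D28. The D14 libraries lay within the Untreated range, and the log2 fold change was 1.42 ± 0.13 at D3, 0.05 ± 0.13 at D14 and 1.36 ± 0.12 at D28. In U251 it was the 1 gene of the 10 whose drop at D14 passed the threshold, as described next.

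The steps between treated groups were tested in the same fit. From D3 to D14 in U87, 5 of the 10 genes fell past the threshold (2.05% of all genes were lower): IFI27, IFI35, EPSTI1, SAMD9L and XAF1. With only the 4 libraries of these groups in the fit, none of the 5 passed at the same log2 differences (-1.37 to -3.91, adjusted p = 0.075 to 0.13). From D14 to D28, 6 of the 10 rose (1.78% of all genes), namely these 5 and IFI6. The IFI6 difference of 1.01 no longer passed without D14 replicate 3 (0.87) or D28 replicate 3 (0.91), with array weights (0.97), or with only the compared groups in the fit (adjusted p = 0.078). Its difference from D3 to D14 was -1.08 without D14 replicate 2 and then passed. From D14 to D28WO the count was again 6 of 10 (6.30%). XAF1 had a log2 difference of -2.75 from D3 to D14 and 3.24 from D14 to D28. In U251 only IFI35 passed in each of these steps. It was at 339, 336 and 337 TPM at D3, 167, 162 and 169 TPM at D14, and 329, 359 and 334 TPM at D28. The D14 libraries lay below all D3 and D28 libraries. Its log2 difference was -1.02 ± 0.09 from D3 to D14 (3.29% of all genes were lower), 1.03 ± 0.09 from D14 to D28 (4.23% were higher) and 1.06 ± 0.09 from D14 to D28WO (1.78%). All these values lie close to the fold limit, and without D14 replicate 2 the first was -0.999 and without D28 replicate 2 the second was 0.993, so neither passed. By adjusted p alone, 6 of the 10 genes were lower at D14 than at D3 in U251 (12.6% of all genes) and 8 were higher at D28 than at D14 (11.3%).

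**Figure D3:**
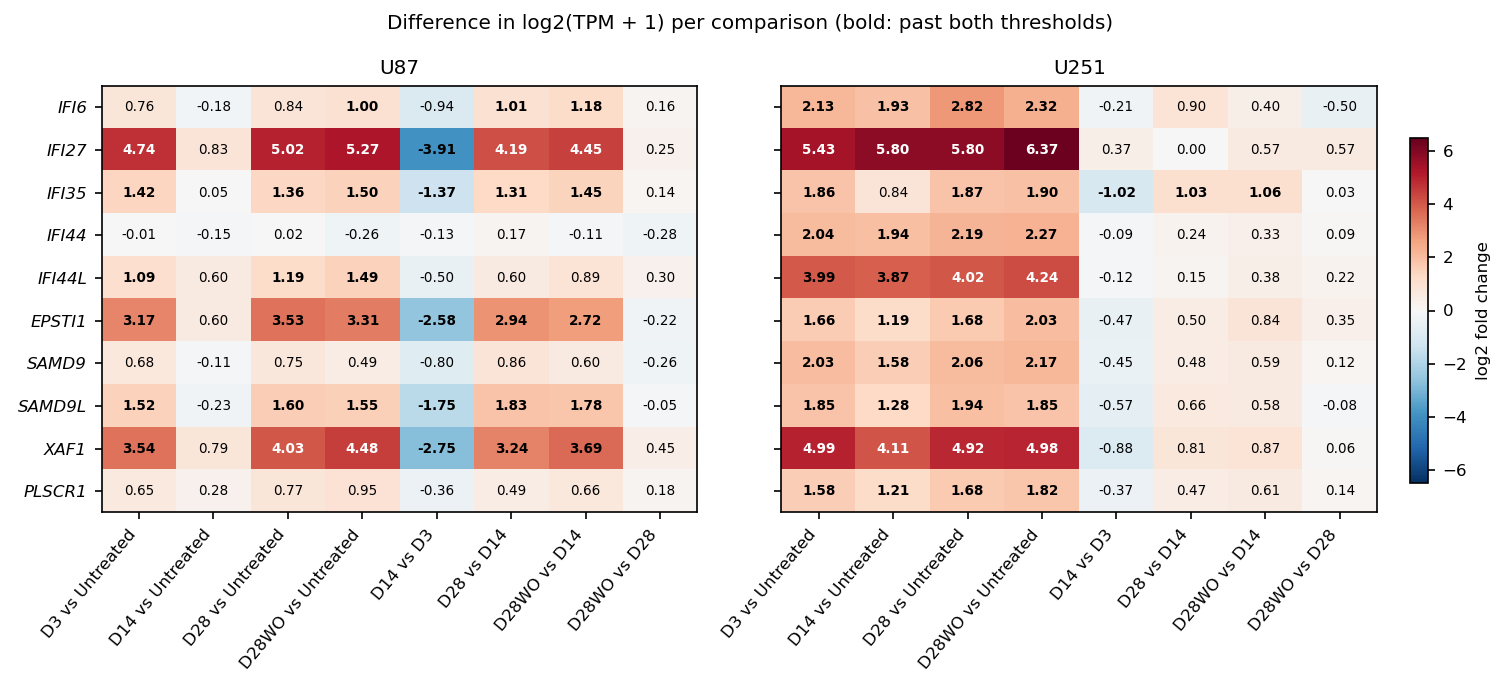
Log2 fold change of each gene (rows) in each of 8 comparisons (columns) for U87 and U251, on log2(TPM + 1). Red is higher and blue is lower in the first-named group, and bold values passed both thresholds; the D14 column of U87 holds no bold value, and IFI44 lies between -0.28 and 0.17 throughout U87.

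The cells kept 14 days without IFN-γ were compared with those under continued treatment. Between D28WO and D28 none of the 10 passed in either direction in U87, where 3.11% of all genes were higher and 2.42% lower, or in U251, where 1.12% were higher and 8.14% lower. By limma at an unadjusted p under 0.05, 1 gene was higher (17.0% of all genes) and 2 were lower (14.0%) in U87, and 1 was higher (13.7%) and 1 was lower (25.3%) in U251. In U87 IFI44L was higher at D28WO by 0.30 (95% interval 0.10 to 0.49, adjusted p = 0.038), and IFI44 (-0.28, 0.03) and SAMD9 (-0.26, 0.048) were lower. In U251 EPSTI1 was higher by 0.35 (0.14 to 0.56, adjusted p = 0.017). IFI6 was lower by 0.50 in U251, at 359, 450 and 421 TPM against 556, 600 and 576 TPM at D28 (log2 difference -0.50, interval -0.76 to -0.24, adjusted p = 0.0064). IFI27 in U251 was at 181, 189 and 188 TPM at D28, below all 3 D28WO libraries given above (log2 difference 0.57, interval -0.15 to 1.29, adjusted p = 0.23). XAF1 in U87 had a mean at D28WO 1.36 times that at D28 (log2 difference 0.45, adjusted p = 0.29), also without overlap.

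The intervals bound how far D28WO levels could lie below D28 levels, with the groups as labelled. They do not describe a change from D14, when withdrawal began. The lower limit was above -1 for every gene in both lines, and the lowest was -0.92 for EPSTI1 in U87. A halving was thus outside the 95% interval of each of the 10 genes. The upper limits for XAF1 in U87 (1.05) and IFI27 in U251 (1.29) passed a doubling. A value that misses the threshold does not show that the 2 groups were alike.

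**Figure D4:**
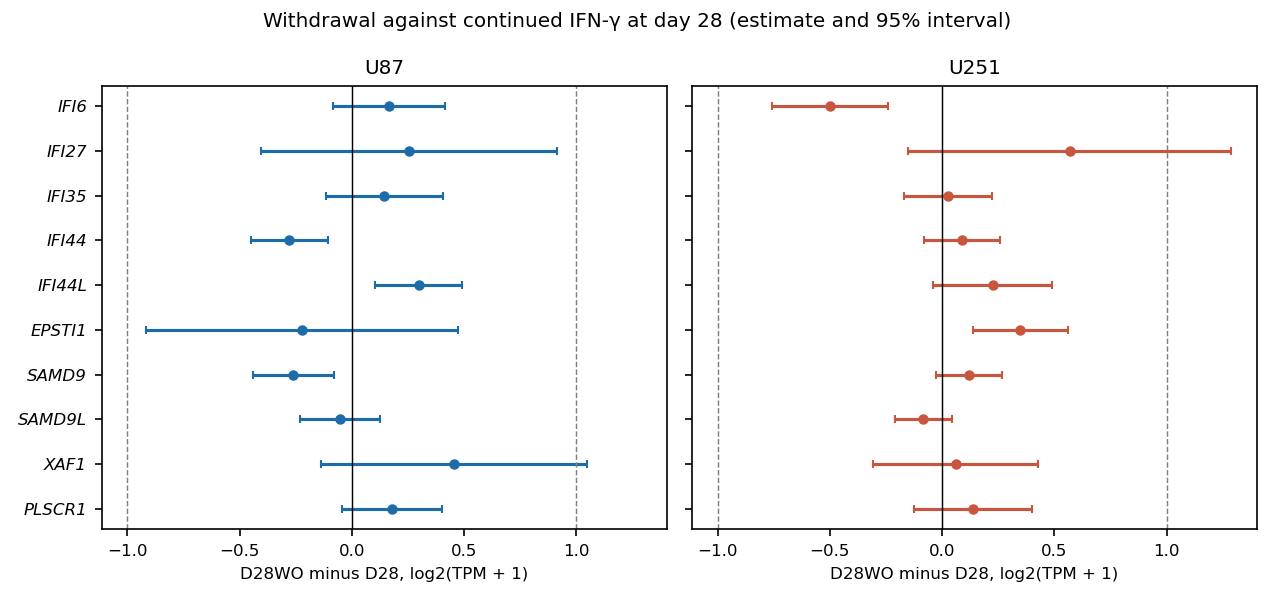
Difference D28WO minus D28 on log2(TPM + 1) for each gene in U87 (left) and U251 (right), with its 95% interval from limma. Dashed lines mark the fold limit of 1 in either direction; IFI6 in U251 lies lowest at -0.50 and no interval reaches -1.

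The other genes of the 2 routes were counted in hand-written lists, chosen with earlier results of these data known. Of 30 further genes known as ISRE responders, 20, 5, 21 and 18 were higher at D3, D14, D28 and D28WO in U87, and 27, 25, 26 and 27 in U251. Of 12 genes known for a GAS or an IFN-γ response, 9, 1, 10 and 10 were higher in U87 and 12, 9, 12 and 12 in U251. Of all genes tested, 5.85%, 1.89%, 6.77% and 12.8% were higher in U87 and 9.72%, 4.72%, 11.9% and 4.07% in U251. No gene of either list passed as lower than Untreated. Between D28WO and D28, 3 ISRE responders passed as lower in U87 (OAS1, OAS3 and CMPK2) and 1 in U251 (RSAD2), and 0 passed as higher. OAS1, which makes the activator of RNase L, was at a mean of 59.2 TPM at D28 and 17.8 TPM at D28WO in U87, and RSAD2 at 212 and 79.3 TPM in U251. In U87 the largest rises at D28 were those of BST2, a tetherin that holds virions at the cell surface, at 5.66, and of IDO1 at 6.69. In U251 the largest at D28 in the ISRE list was RSAD2, the antiviral enzyme viperin, at 7.07. The largest in the GAS list was HLA-DRA at 8.25, followed by CXCL9 at 7.52. With a constant of 0.1 in place of 1, CMPK2 (9.66) stood above RSAD2 (8.44) in the ISRE list of U251. HLA-DRA was listed at 0 in every Untreated U251 library and IDO1 in 2 of the 3 Untreated U87 libraries, so these fold changes also depend on the added constant.

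The medians of the lists were set side by side. In U251 the median log2 fold change of the ISRE list was 2.37 at D3 and 1.86 at D14, and that of the GAS list was 3.70 at D3 and 1.49 at D14. For the 10 genes the medians were 2.03 and 1.75. In U87 the 3 medians at D14 were 0.11 for the ISRE list, 0.05 for the GAS list and 0.17 for the 10 genes, beside 0.15 for all genes tested. The difference between lists was not tested.

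**Figure D5:**
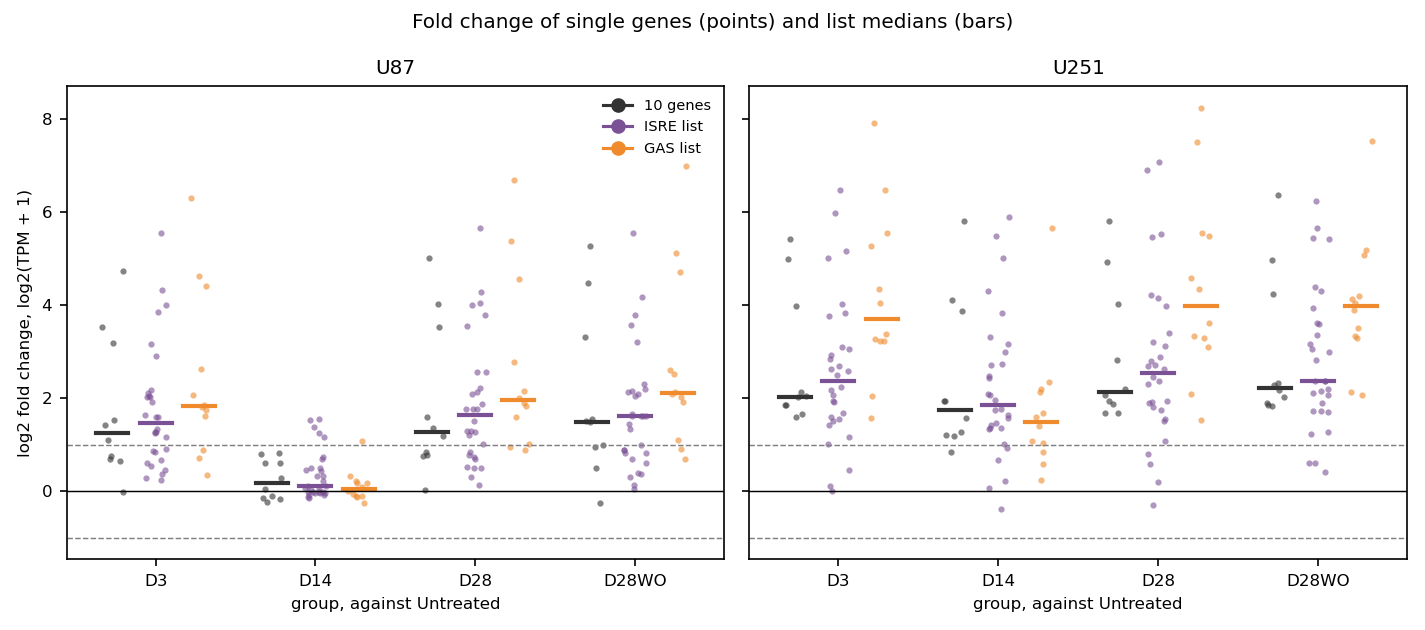
Log2 fold change against Untreated for the 10 genes (black), the ISRE list of 30 genes (purple) and the GAS list of 12 genes (orange) in U87 and U251. Points are genes and bars are medians; at D14 in U87 the 3 medians are between 0.05 and 0.17, and in U251 they are between 1.49 and 1.86.

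The interferon genes themselves were at low levels. Of 9 interferon ligands none passed the filter on low values in U87, where IFNB1 was listed at 0 in all 13 libraries. In U251 IFNB1, the type I interferon-β, was listed at 0 in all 3 Untreated libraries. It was at 1.09 to 2.21 TPM at D3, 3.24 to 3.81 TPM at D14, 6.26 to 8.59 TPM at D28 and 0.93 to 2.05 TPM at D28WO. All treated libraries of U251 thus held IFNB1 transcripts. IFNL1, a type III interferon, was at 1.91 to 3.53 TPM at D28 in U251 and listed at 0 in the Untreated libraries. IFNG was listed at 0 in every library, and IFNA1, IFNA2, IFNE, IFNK, IFNL2 and IFNL3 stayed at or below 1.10 TPM throughout. The part of IFNB1 in the levels of the 10 genes was not tested.

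Few receptors and kinases passed the threshold. JAK2 was the 1 of 9 that passed at D28 in both lines, at a log2 fold change of 1.15 in U87 at D28 and 2.46 in U251 at D28. In U251 JAK2 was at 9.93 TPM in Untreated cells, 59.5 TPM at D3, 14.4 TPM at D14 and 56.6 TPM at D28, a dip at D14 like that of IFI35. In U87 IFNLR1, the type III receptor chain, was higher at D28 (1.64), at 3.36 to 4.76 TPM, and lower at D28WO than at D28 (-1.63), at a mean of 0.70 TPM. IFNAR1, IFNAR2, IFNGR1, IFNGR2, IL10RB, JAK1 and TYK2 did not pass the threshold at D28 in either line. For STAT2 and IRF9 in U87, the D14 log2 fold change was 0.50 and 0.08, against 1.26 and 1.16 at D3. In U251 the D14 values were 1.02 and 1.35.

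Most relatives and binding partners did not pass the threshold. Of 8 such genes, NMI, the partner of IFI35, was the 1 that passed at D28 in both lines, with log2 fold changes of 1.23 in U87 and 1.55 in U251. NMI also followed IFI35 at D14 in U251, at 76.6 to 87.4 TPM between 149 to 180 TPM at D3 and 155 to 158 TPM at D28. XIAP, which XAF1 binds, had log2 fold changes of 0.35 in U87 and 0.30 in U251 at D28, and BIRC2 of -0.34 and 0.24. The scramblases PLSCR3 and PLSCR4 had values of 0.05 and 0.54 in U87 and -0.38 and 0.49 in U251. PLSCR2, which lies next to PLSCR1, was listed at 0 in all Untreated libraries. In U251 it was at 1.29 to 4.14 TPM at D3 and 0.79 to 2.37 TPM at D28WO, and it passed as higher at D3 (1.89, adjusted p = 0.00072) and D28WO (1.45, 0.0072), at 1.00 (0.037) and just under the fold limit at D28. IFI27L2 had a log2 fold change of -0.06 in U87 and 0.05 in U251, and IFI27L1 of 0.29 and 0.93.

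The genes next to the members were examined on the chromosome. IFI27 lies between IFI27L1 and IFI27L2 on chromosome 14 (IFI27, chr14:94104836-94116695), and neither neighbour passed the threshold at D28. In U251 IFI27L1 was still at 140 to 152 TPM at D28 against 69.7 to 81.4 TPM in Untreated cells (adjusted p = 6.5e-06 by limma). FBXO39, which encodes an F-box protein, follows XAF1 (chr17:6755447-6775647) on the same strand, with 567 bases between them. In U251 FBXO39 was at 1.64 to 2.89 TPM in Untreated cells, 21.4 to 24.1 TPM at D3, 8.75 to 9.66 TPM at D14, 20.1 to 25.8 TPM at D28 and 11.6 to 15.2 TPM at D28WO. The difference from Untreated was 2.88 ± 0.16 on the log2 scale at D3 and 1.63 ± 0.16 at D14, and all 4 treated groups lay above Untreated without overlap. In U87 FBXO39 was at 3.39 to 5.24 TPM in Untreated cells and did not pass in any treated group. Its D3 and D28 values were 0.19 and 0.57 on the log2 scale, and at D28WO, the group with the highest XAF1 level, the value was -0.06. Reads running on from XAF1 cannot be told apart from FBXO39 transcripts in these values. RPL27, a ribosomal protein gene next to IFI35, had log2 fold changes of -0.36 in U87 and -0.41 in U251 at D28, and VAT1 on the other side of -0.22 and 0.20. FGR, next to IFI6, fell in U251 with a log2 fold change of -1.29 at D28, and CDK6, next to SAMD9, had values of 0.62 in U87 and -0.998 in U251. Of the remaining neighbours, FAM76A, PTGFR, DNAJC15 and FAM216B did not pass at D28 where they were tested. Under the fold limit, PTGFR was higher in U251 (0.71, adjusted p = 0.00024 by limma) and FAM76A in U87 (0.48, 0.045). ADGRL4, HEPACAM2 and SLC13A5 had means below 1 TPM in the Untreated and D28 groups, and PLSCR5 was listed at 0 in them.

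Genes with the most similar course were found by correlation. The profile was the mean of the 10 standardized genes over the libraries of a line, which share their group structure. In U87 (13 libraries) the closest genes were IFIT3 (Pearson r = 0.997), APOL4 (0.996) and GBP1 (0.996). In U251 (15 libraries) they were IFIH1 (0.998), RIGI (0.997) and IFIT3 (0.997). Mean levels of IFIT3, a gene of the ISRE list that binds viral RNA with its IFIT partners, were 19.6, 82.5, 19.1, 87.2 and 84.1 TPM over Untreated, D3, D14, D28 and D28WO in U87, and 27.3, 201, 118, 207 and 224 TPM in U251. Among the members, each correlated with the mean of the other 9 at r of 0.88 to 1.00, except IFI44 in U87 at -0.21. The order of levels also changed with treatment. In Untreated U87 IFI44 led at a mean of 101 TPM and IFI27 was last, and at D28 IFI35 led at 196 TPM and SAMD9 was last at 47.3 TPM. In U251 IFI35, PLSCR1 and IFI6 led in Untreated cells with overlapping libraries, and IFI6 led alone at D28.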

How the data were processed

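Per the labels, which name the tables, the deposited values are TPM, 1 table per line, each library summing to the same total; the study's supplement describes its matrices as CPM. Per the submitters' processing notes and the study's methods, the authors used FastQC, Trim Galore, STAR, featureCounts and edgeR with GRCh38; how TPM was computed is not given in the sources used here. Labels were checked against the tables: 2 U87 columns that share a name were not used, leaving 13 and 15 libraries. TPM keeps no depth, so no detection floor was computed.

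The scale of analysis was log2(TPM + 1). A gene entered the test when its average over a line's libraries reached 0.5 TPM. The test was limma (version 3.58.1, R 4.3.3), 5 groups per fit and no covariate, with Benjamini-Hochberg adjustment over all genes tested. The limits (0.05 and 1) follow the study. Ratios were compared with exact two-sided permutation tests (scipy 1.17.1). The fit was tested on simulated data. Named genes were all members, every relative, receptor and ligand, the largest change in each list, adjacent protein-coding genes and the 3 most similar genes per line. Members and lists were chosen with earlier results of these data known. Promoter sequences are from RefSeq (GRCh38.p14), with the first listed start site of each gene. Alternatives were another constant (0.1), other filters, quantile and size-factor scaling, a fit of the compared groups only, a replicate block, array weights and leaving out each library. Replicate numbers come from the labels.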

Additional observations from a re-analysis of the deposited data

Results flagged for a closer look

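Some genes lay on opposite sides of Untreated in the 2 lines, with every treated library below all Untreated libraries in U87 and above all of them in U251. The share of all genes with this pattern was not computed, so how unusual it is cannot be judged. The members were IFI44 at D14 (log2 fold change -0.15 in U87 and 1.94 in U251) and at D28WO (-0.26 and 2.27). At D14 they also included SAMD9 (-0.11 and 1.58) and SAMD9L (-0.23 and 1.28). The difference between the lines was not tested, since their tables were normalized separately. In U87 the 3 values at D14 did not pass the threshold (adjusted p = 0.35, 0.5 and 0.17 by limma), and each rests on 2 libraries. The D28WO value of IFI44 in U87 had an adjusted p of 0.021 by limma and lay under the fold limit.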

How the results depend on the processing

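Over 736 recomputed counts of members called in a direction, 721 stayed within 1.5 times the reported count. These include counts of 0 that stayed at 0, and counts of 6 that became 9 by adjusted p alone. Leaving out single libraries gave 0 to 1 members higher at D14 in U87 (1 without Untreated replicate 1 or 2, where EPSTI1 reached 1.10 and IFI27 1.22), 0 to 1 lower from D3 to D14 in U251 and 0 to 1 higher from D14 to D28. With only the compared groups in the fit, 0 members were lower at D14 than D3 in U87, where 4 libraries remain and the log2 differences are the same. By adjusted p alone, with the share of all genes in parentheses, 1 was higher at D14 (4.14%) and 1 lower at D28WO (13.4%) in U87. Also in U87, 9 were higher at D3 (12.4%), D28 (17.2%) and D28WO (28.6%). From D14, 9 were higher at D28 (2.94%) and 9 at D28WO (14.3%). From D3 to D14, 8 were lower (3.32%), and between D28WO and D28, 1 was higher (9.90%) and 2 lower (8.44%). In U251 the same rule gave 6 lower from D3 to D14 (12.6%), 8 higher from D14 to D28 (11.3%), 9 higher from D14 to D28WO (10.6%), and 1 higher (10.3%) and 1 lower (18.8%) between D28WO and D28. Values near 0 changed sign. IFI44 in U87 was 0.000218 at D3 with array weights (-0.083 to 0.055 leaving out libraries) and -0.17 at D28 with size factors (-0.014 to 0.045). IFI35 in U87 at D14 was -0.031 with quantile scaling and -0.13 with size factors (-0.059 to 0.19). In U251, IFI27 from D14 to D28 was -0.026 with size factors (-0.052 to 0.069). Between D28WO and D28 in U251, IFI35 was -0.095 and XAF1 -0.054 with quantile scaling (IFI35 -0.017 to 0.11), and SAMD9L was 0.0047 with size factors. The cause was not tested. IFI6 in U87 at D28WO fell to between 0.77 and 0.99 under 6 alternatives, and IFI44L at D3 to 0.87 with quantile scaling and 0.90 with size factors, and at D28 to 0.98 with quantile scaling. With size factors the median of all genes in U87 was 0.00 to 0.07. Same-numbered samples did not deviate together (correlations -0.058 to 0.048), so equal numbers were not treated as pairs. Which D28 and D28WO cultures share a parent is not given in the sources used here. A replicate block changed the call of none of 192 results, with 6 members higher at D3 in U87.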
